A study of Mus musculus with 6 samples.

Results

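The 44 genes described here encode the machinery that makes ribosomes in the nucleolus, measured in cultured mouse embryonic fibroblasts with and without a hairpin against ARF. They form a hand-made list of RNA polymerase I and ribosome biogenesis genes, and each was read from the brightest of the probesets annotated to that symbol alone. All 44 had such a probeset and all 44 passed the filter on low values, among 15145 genes tested. By role, 9 belonged to the polymerase I machinery, 23 to early processing of the ribosomal RNA precursor and 12 to assembly of the large (60S) subunit. The assignment to roles was made by hand, and the early processing group also takes in factors of later maturation and export, such as Nob1 and Rrp12.

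The groups were 3 arrays of cells with the control hairpin shSCR and 3 arrays of cells with the hairpin shARF. The titles of all 6 samples carry the word Ras, and the series title names both kinds of cell dp53R, a name that the labels do not spell out. The cells were fibroblasts kept in serum-containing medium with gentamicin, and the age of the embryos and the number of cultures are not stated in the sources used here. A hairpin RNA, delivered by a vector, is cut into a small RNA that silences matching transcripts. The comparison shows what differs between cells with shARF and cells with shSCR. The labels name no other hairpin against ARF, so ARF loss and other effects of the hairpin cannot be told apart. The labels call the replicates biological without saying whether they came from separate cultures, so p-values measure the spread between these samples.

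Ribosome production starts when RNA polymerase I, helped by UBF, the promoter factor SL1 and RRN3, transcribes the ribosomal DNA into 1 long precursor. Small nucleolar ribonucleoproteins and the small subunit processome fold, modify and cut that precursor, and separate sets of factors then build each subunit and pass it to the cytoplasm. ARF, made from the Cdkn2a locus, resides largely in the nucleolus, where it is known to bind nucleophosmin and to hold back ribosomal RNA synthesis and processing. The transcripts of the machinery are measured here, not ribosomal RNA or the proteins.

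Signals are linear intensities after RMA (robust multi-array average), and each difference is shARF minus shSCR of their log2 values, with its standard error. The hairpin's target was lower on every shARF array. Cdkn2a had signals of 535, 539 and 516 on the shSCR arrays and 315, 254 and 286 on the shARF arrays. The fitted log2 change was -0.90 ± 0.086 (SE; limma, adjusted p = 0.00459). The probeset may also read p16Ink4a, which shares exons with ARF. Median signals per array were 41.97 to 42.86, and correlations across probesets, a description with no test, were 0.995 to 0.997 between arrays of one group and 0.992 to 0.994 between arrays of different groups. All 10 fibroblast markers were measured and 0 passed limma's test (an unadjusted p under 0.05 was reached by 2 higher and 2 lower ones, and 2 were called in SAM, significance analysis of microarrays). Their summed signal was 22188 to 23835 on shSCR and 23975 to 24670.3 on shARF arrays. Among markers of other cell types, the epithelial keratin gene Krt18 and the neurofilament gene Nefl rose. The summed signal of 6 epithelial markers was 244 to 286 on shSCR and 348 to 491 on shARF arrays, and that of 7 neural markers was 710 to 756 and 886 to 973. Macrophage markers were summed over 4 genes, at 161 to 183 and 157 to 183, and the defining genes Ptprc, Csf1r and Adgre1 did not pass the filter on low values. The part of these markers in the results was not tested.

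Messenger RNA levels of the ribosome biogenesis genes differed little between the groups. In limma, with p-values adjusted over all tested probesets and a threshold of 0.05, 1 of the 44 genes fell, 0 rose and 43 did not pass. Over all genes tested 4.01% were called, 2.38% lower and 1.62% higher, so 1 of 44 is near the background. The gene that fell was Rrp12. At an unadjusted p under 0.05, 12 members were lower and 1 was higher, which is 27.3% lower where all genes gave 13.4%, and higher calls of that kind made up 8.76% of all genes. SAM, the test that the series design names, called 3 members lower and 0 higher, where it called 4.61% of all genes lower and 2.52% higher.

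The differences were small and mostly of 1 sign. Of the 44 differences 34 were negative and 10 positive, while 53.2% of all tested genes had a negative difference. The median over members was -0.08 on the log2 scale, with a range of -0.32 to 0.19, beside a median of -0.01 over all genes tested. The 3 shARF arrays lay below all 3 shSCR arrays for 14 members, or 31.8%, where 16.6% of all genes did so, and above them for 1 member, where 12.0% of all genes did so. The members were brighter than the tested genes, with a median signal of 473 against 98.2. Their median SE was smaller, 0.066 against 0.082. With each array's median as detection level, the median difference of all genes was -0.03. How far signal level shapes the shares was not tested. Repeating the quantile normalization or centring the arrays on their medians left the count of negative differences at 34. The deposited values were already quantile normalized, and these steps moved the members' median from -0.077 to -0.057 and -0.075. They are therefore a weak check of the signs. The median 95% interval of a member's difference reached 0.16 to either side on the log2 scale. In bulk samples fewer cells of a type and less RNA per cell cannot be told apart.

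**Figure D1:**
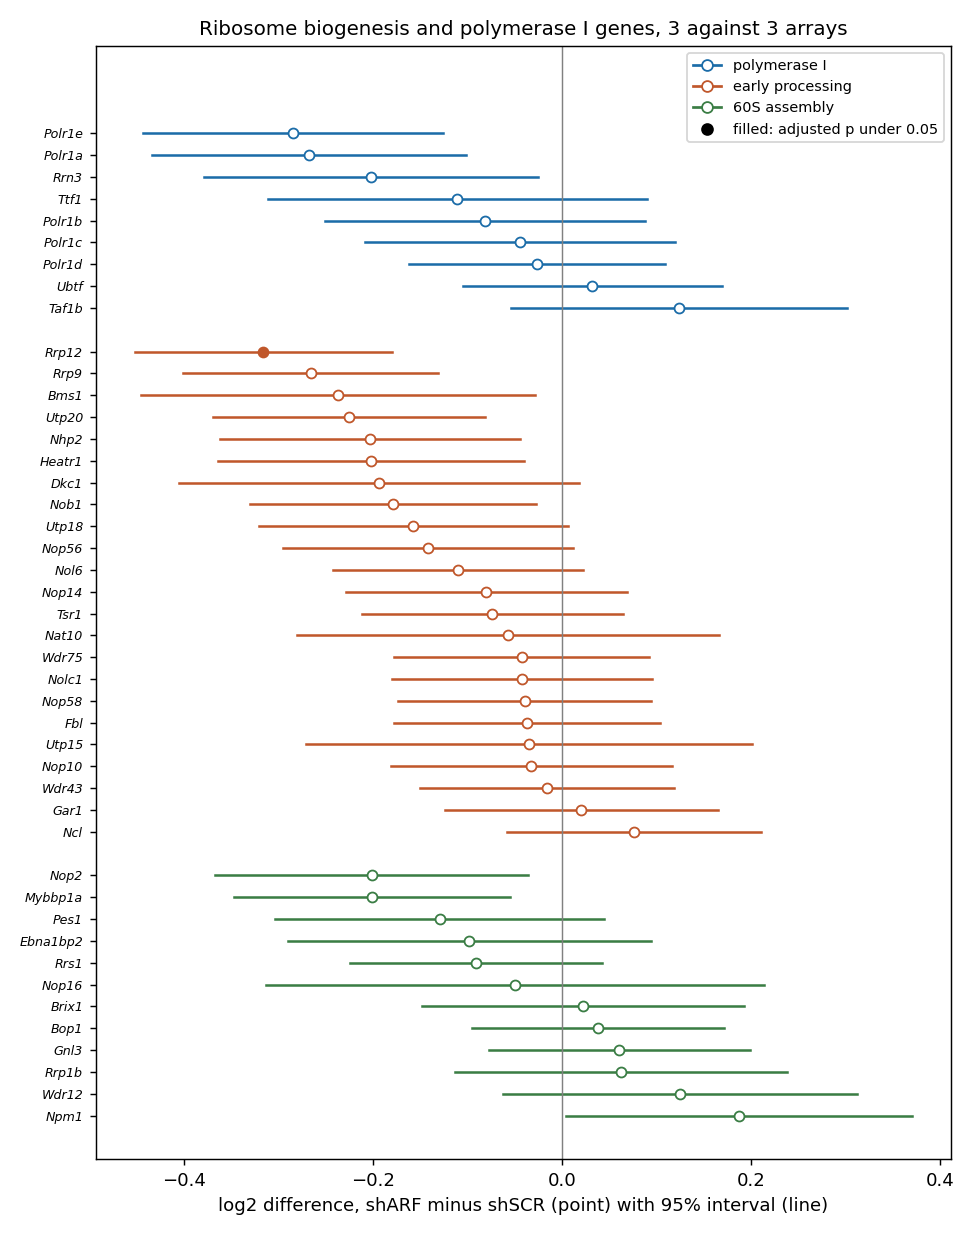
Log2 difference (shARF minus shSCR, horizontal axis) of each of the 44 genes with its 95% interval from limma, not adjusted for the number of genes, in blocks by role and ordered within a block. The filled point, Rrp12, is the 1 member past an adjusted p of 0.05, and 34 of 44 points lie left of 0, with 13 intervals that do not include 0.

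Promoters were examined because genes of ribosome production are known targets of MYC, which binds the E-box. The palindromic E-box, spelled CACGTG on both strands, was searched in RefSeq windows of build GRCm38.p6 that run from 250 bases before to 50 bases after each start. Windows were matched by symbol for 38 of the 44 genes, and Rrp12, Npm1, Fbl, Bop1, Nol6 and Rrs1 are outside this comparison. Rrp12 and Npm1 have the lowest and the highest difference of the 44. Of the 38 genes with a window, 8 held the motif, or 21.1%. The share was 8.09% of 27025 genes with a window and 10.97% of the 11961 tested genes with one. The motif lay upstream of the start in Rrn3, Nop2 and Utp18, and within the first bases after the start in Pes1, Wdr43, Tsr1, Utp20 and Mybbp1a. The 250 bases upstream of those 3 starts are shown in the direction of transcription, with the E-boxes in capitals. The Rrn3 stretch is chr16:13780449-13780698 on the + strand, with E-boxes that begin at -215 and -48 from the start. The Nop2 stretch is chr6:125131633-125131882 on the + strand, with 1 E-box at -60, and the Utp18 stretch is chr11:93885767-93886016 on the - strand, with 1 at -20.
Rrn3: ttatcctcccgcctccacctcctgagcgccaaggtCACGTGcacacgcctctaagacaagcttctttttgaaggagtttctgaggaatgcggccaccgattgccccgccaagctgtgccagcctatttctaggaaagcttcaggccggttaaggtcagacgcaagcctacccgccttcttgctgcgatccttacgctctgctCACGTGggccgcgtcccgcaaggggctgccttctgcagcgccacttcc
Nop2: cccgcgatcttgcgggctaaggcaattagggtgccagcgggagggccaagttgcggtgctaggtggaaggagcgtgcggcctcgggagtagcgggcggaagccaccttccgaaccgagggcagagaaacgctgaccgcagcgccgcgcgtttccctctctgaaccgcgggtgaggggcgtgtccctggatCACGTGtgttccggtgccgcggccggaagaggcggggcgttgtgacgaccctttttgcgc
Utp18: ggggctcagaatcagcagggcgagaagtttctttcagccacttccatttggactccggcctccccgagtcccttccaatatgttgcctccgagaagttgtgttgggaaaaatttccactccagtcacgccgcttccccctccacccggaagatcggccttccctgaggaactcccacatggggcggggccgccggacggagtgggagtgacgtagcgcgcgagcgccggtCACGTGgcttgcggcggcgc

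All 8 members with an E-box in the window had negative differences, and 34 of the full 44 members did. The 8 differences ran from -0.23 for Utp20 to -0.02 for Wdr43 on the log2 scale, and their median was -0.18. The other 30 members with a window had a median of -0.05 and a range of -0.28 to 0.13. Over the tested genes, those with an E-box had a median of -0.02 and those without one -0.01. These are descriptions of letters in a window, and none of the 8 genes passed limma's test (smallest adjusted p = 0.102, for Utp20). Their unadjusted p lay under 0.05 for Utp20, Mybbp1a, Nop2 and Rrn3. At that p 27.3% of the 44 members and 13.4% of all genes were lower (limma). A tie between the motif and the differences was not tested.

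None of the 9 genes of the polymerase I machinery passed the test (limma), while SAM called Polr1e lower. An unadjusted p under 0.05 was reached by 3 genes, all lower, or 33.3%, where 13.4% of all genes were lower at that p. Over the 9 genes the log2 differences had a median of -0.08, with 7 negative and 2 positive. The median was -0.15, -0.05 and -0.05 without shSCR replicate 1, 2 and 3 in turn, and -0.05 with repeated quantile normalization. Polr1e, which encodes a subunit that helps the enzyme associate with its initiation factors, had signals of 174, 186 and 189 on the shSCR arrays and 142, 158 and 150.4 on the shARF arrays. The groups did not overlap, and the log2 difference was -0.28 ± 0.068 (SE; limma, adjusted p = 0.0718). Polr1a, the largest catalytic subunit, had 484, 479 and 504 against 423, 423 and 374, with the 3 shARF arrays below the 3 shSCR arrays. Its difference was -0.27 ± 0.071 (limma, adjusted p = 0.0951). Rrn3, the growth-regulated factor that makes the polymerase competent to start, holds 2 of the E-boxes shown above. It had 536, 525 and 589 against 454, 512 and 468. The highest shARF array lay just below the lowest shSCR array, and the difference was -0.20 ± 0.076 (limma, adjusted p = 0.194).

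The remaining genes of the polymerase I group had differences nearer to 0. Polr1b, the other large catalytic subunit, had 191, 220.02 and 219 on shSCR and 195, 199 and 200.2 on shARF arrays. The groups overlapped, and the difference was -0.08 with a 95% interval of -0.25 to 0.09. Ubtf, which encodes the architectural factor UBF that keeps ribosomal DNA open, had 568, 543 and 579 against 571, 591 and 566. Its difference was 0.03 with a 95% interval of -0.10 to 0.17, and it turned to -0.01 in 1 of 18 alternative analyses. Ttf1, the factor that stops polymerase I and that ARF is known to bind, had 75.3, 91.2 and 87.2 against 74.7, 81.1 and 78.5. The lowest shSCR array was as low as the lowest shARF array, and the difference was -0.11 ± 0.085. Taf1b, a subunit of the promoter factor SL1, had 136, 134 and 144 against 145, 164 and 142. Its difference of 0.12 ± 0.076 was positive, and the groups overlapped (limma, adjusted p = 0.396). Polr1c and Polr1d, subunits shared with RNA polymerase III, differed by -0.04 ± 0.070 and -0.03 ± 0.058, and another probeset of Polr1d gave 0.04 ± 0.065.

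The early processing group, which also takes in factors of later maturation and export, held the 1 member that passed. Of its 23 genes 1 fell, 0 rose and 22 did not pass in limma, where 2.38% of all genes fell and 1.62% rose. An unadjusted p under 0.05 was reached by 7 genes, all lower, or 30.4%. At that p 13.4% of all genes were lower (limma). The median difference was -0.08, and 21 differences were negative, where 53.2% of all tested genes had a negative difference. The median was -0.14 without shARF replicate 2, and 19 differences were negative without shARF replicate 1. The group divides into 13 genes of the small subunit path and 10 genes of small nucleolar ribonucleoproteins with their nucleolar scaffolds. All 13 small subunit genes had negative differences, from -0.32 to -0.02 on the log2 scale, and their median was -0.11. That count stayed at 13 with repeated quantile normalization or median centring, a weak check on already normalized values. With these steps the median of the 13 genes went from -0.110 to -0.096 and -0.108. The count was 11 without shARF replicate 1 and 12 without shARF replicate 3.

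Rrp12, which encodes a factor for the maturation and nuclear export of pre-ribosomes, fell from shSCR signals of 236, 232 and 233 to shARF signals of 181, 195 and 189. The difference of -0.32 ± 0.058 (SE) is 1.24-fold down (limma, adjusted p = 0.0347). The 3 shSCR arrays lay close together, and all 3 shARF arrays lay well below them. With any single array removed the call was gone (adjusted p of 0.0565 to 0.115 in limma), while the difference stayed between -0.34 and -0.29. Utp20, a large scaffold of the small subunit processome, had 365, 379 and 392 against 318, 337 and 316. The groups did not overlap, and the difference was -0.23 ± 0.061 (limma, adjusted p = 0.102).

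The other small subunit genes gave smaller or more variable differences. Heatr1, a processome subunit that is also needed for transcription of ribosomal DNA, differed by -0.20 ± 0.069. Nob1, the nuclease that makes the final cut at the end of the small subunit RNA, differed by -0.18 ± 0.065, and Bms1, a processome GTPase, by -0.24 ± 0.089. Utp18 and Nol6, both processome proteins, differed by -0.16 ± 0.070 and -0.11 ± 0.056, with shARF arrays below shSCR arrays in both. Nop14 and Tsr1, assembly factors of the small subunit, differed by -0.08 ± 0.063 and -0.07 ± 0.059. Nat10, which acetylates the small subunit RNA, differed by -0.06 ± 0.095, and the early-binding processome genes Wdr75, Utp15 and Wdr43 by -0.04, -0.03 and -0.02. In Bms1, Nop14, Tsr1, Nat10, Wdr75, Utp15 and Wdr43 the arrays of the groups overlapped.

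The small nucleolar ribonucleoproteins carry guide RNAs that direct methylation (box C/D) or pseudouridylation (box H/ACA) of ribosomal RNA. Rrp9, a protein specific to the U3 particle that helps cut the precursor, had 379, 386 and 372 on shSCR arrays and 317, 324 and 305 on shARF arrays. The groups lay far apart relative to their spread, and the difference was -0.27 ± 0.057 (SE; limma, adjusted p = 0.0546). Nhp2, an H/ACA core protein, had 1652, 1611 and 1634 against 1478, 1469 and 1313. The groups did not overlap, shARF replicate 3 was the lowest, and the difference was -0.20 ± 0.068 (limma, adjusted p = 0.154). The other H/ACA core genes did not share one value: Dkc1, the pseudouridine synthase, differed by -0.19 ± 0.090, Nop10 by -0.03 ± 0.063 and Gar1 by 0.02 ± 0.062.

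Box C/D core genes and the nucleolar scaffolds did not pass in limma or SAM, and 0 of them had an unadjusted p under 0.05. Fbl, which encodes the methyltransferase fibrillarin, had 2097, 2178 and 2287 on shSCR arrays and 2133, 2158 and 2102 on shARF arrays. The groups overlapped, with a difference of -0.04 ± 0.060, and the other Fbl probeset, which by its number lies among probesets of Fbl's own chromosome, gave -0.22 ± 0.117 (limma, adjusted p = 0.344). Nop56 and Nop58, the paired core proteins of the same particle, differed by -0.14 ± 0.065 (95% interval -0.29 to 0.01) and -0.04 ± 0.057. Ncl, which encodes the abundant nucleolar protein nucleolin, had 2716, 2756 and 2897 against 2899, 2962 and 2961. It was the 1 member whose shARF arrays all lay above its shSCR arrays, with the nearest arrays almost equal, and the difference was 0.08 ± 0.057 (limma, adjusted p = 0.488). Nolc1, a scaffold that carries both kinds of particle, differed by -0.04 ± 0.059.

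The 12 members of large subunit assembly had differences of both signs. None of the 12 passed in limma and SAM called 0. An unadjusted p under 0.05 was reached by 2 lower genes, or 16.7%, and 1 higher gene, where all genes gave 13.4% lower and 8.76% higher. Of the 12 differences 6 were negative and 6 positive. The median was -0.01 on the log2 scale, equal to that of all genes to 2 decimals, and it moved both ways with the arrays used. It was 0.02 without shSCR replicate 3, 0.01 without shARF replicate 1, 0.00 without shARF replicate 3, -0.07 without shSCR replicate 1 and -0.04 without shARF replicate 2. With the Wdr12 probeset that by its number lies on the gene's own chromosome it was -0.06, with 7 negative and 5 positive. Npm1, which encodes nucleophosmin, the nucleolar chaperone and export factor that binds ARF, had 2608, 2661 and 2886 on shSCR arrays and 3351, 3066 and 2880 on shARF arrays. The shARF 3 array lay just under the highest shSCR array, so the groups overlapped. The difference was 0.19 ± 0.078 with a 95% interval of 0.0045 to 0.37 (limma, adjusted p = 0.233). No alternative analysis called Npm1, with adjusted p of 0.0657 to 0.462 in limma.

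Mybbp1a, a nucleolar protein with roles in ribosomal RNA synthesis and processing, had 982, 1043 and 1032 against 845, 915 and 899.7. The groups did not overlap, and the difference was -0.20 ± 0.062 (SE; limma, adjusted p = 0.134). Nop2, a methyltransferase of the large subunit RNA with 1 of the E-boxes shown above, had 435, 454 and 492 against 386, 419 and 396. The groups did not overlap here either, and the difference was -0.20 ± 0.070 (limma, adjusted p = 0.170). Pes1, Bop1 and Wdr12 form a complex that is needed for large subunit maturation, and their differences did not share a sign. Pes1 had 486, 533 and 574.5 against 479, 489.6 and 485, a difference of -0.13 ± 0.074, and the groups overlapped. Bop1 differed by 0.04 ± 0.057 and Wdr12 by 0.13 ± 0.080, while that other Wdr12 probeset gave -0.06 ± 0.115. The assembly factors Rrs1, Ebna1bp2 and Nop16 differed by -0.09, -0.10 and -0.05, and Gnl3 (nucleostemin), Rrp1b and Brix1 by 0.06, 0.06 and 0.02.

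**Figure D2:**
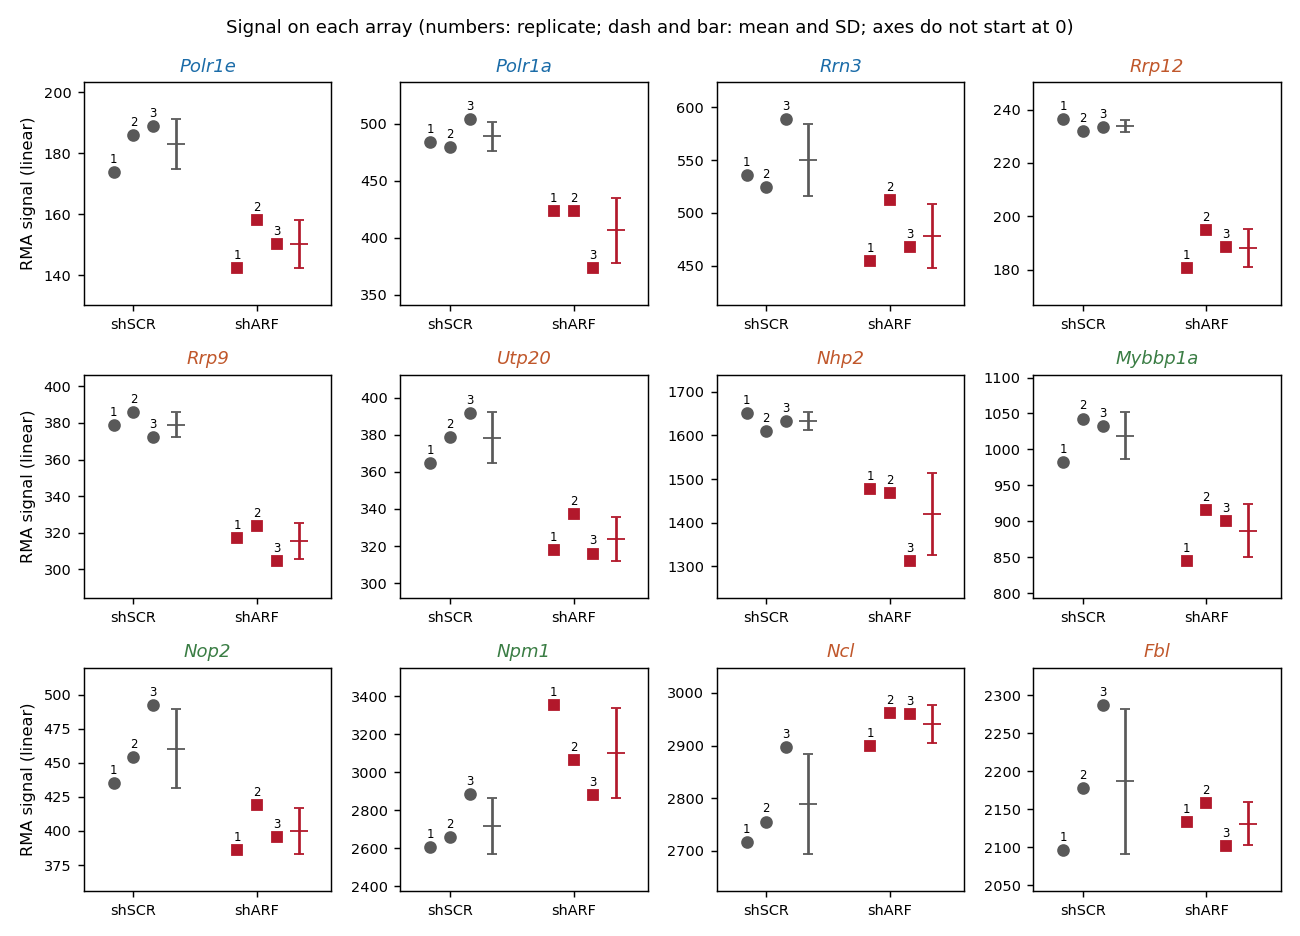
Linear RMA signal on each of the 6 arrays for 12 members, numbered by replicate, with the mean and SD of each group beside the points. Title colours mark the role (blue polymerase I, orange early processing, green 60S assembly). In the first 9 panels all shARF arrays lie below all shSCR arrays, in Npm1 and Fbl the groups overlap, and in Ncl the shARF arrays are higher.

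The members moved together from array to array within each group. On each array the median over the 44 genes was taken relative to the shSCR mean of each gene, on the log2 scale. For shSCR the 3 arrays gave -0.04, 0.00 and 0.05 in the order of their replicate numbers, and for shARF they gave -0.12, -0.04 and -0.09. The SD of these medians was 0.044 within shSCR and 0.040 within shARF. The highest shARF median (-0.04) thus lay at the level of the lowest shSCR median (-0.04). In shARF, replicate 2 held the highest value of the group for 35 of 44 members and the lowest for 0, and replicate 1 the lowest for 30. In shSCR, replicate 3 was the highest for 30 members and replicate 1 the lowest for 29. The median over all 15145 genes stayed between -0.02 and 0.00 on every array, but quantile normalization keeps such a median near 0. Array order was not counted over all genes. Whether the shared order is particular to the members was therefore not tested. Without shARF replicate 2 the median difference of the members was -0.12, and without shSCR replicate 2 it was -0.05.

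**Figure D3:**
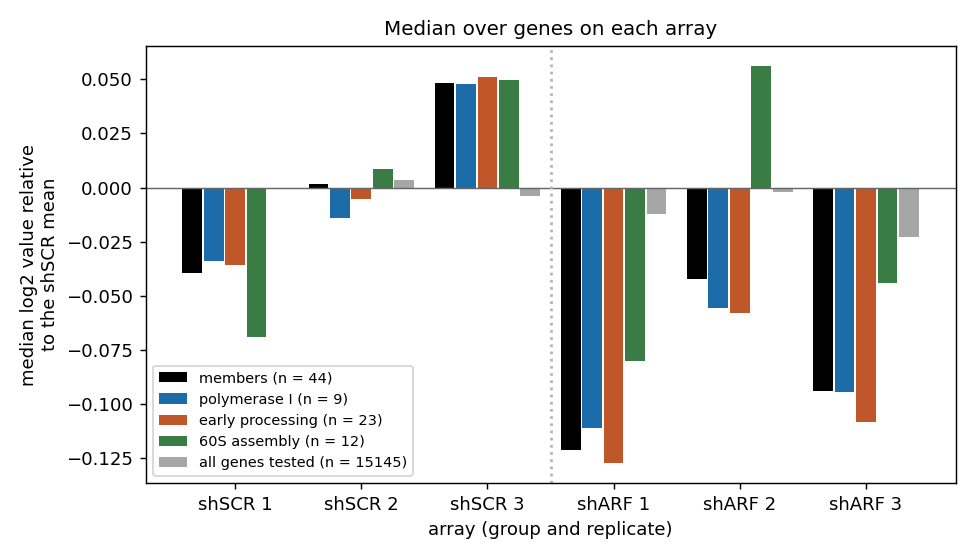
Median log2 value on each array relative to the shSCR mean, for all 44 members, each role group and all tested genes. The early processing bars lie between -0.13 and -0.06 on the shARF arrays, while the 60S assembly bar of shARF replicate 2 is positive at 0.06.

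Further genes of ribosome production, listed by role and not by their values, were measured as well. Over all genes tested, limma called 2.38% lower and 1.62% higher. Of 111 measured genes outside the 44, 1 fell, 0 rose and 110 did not pass in limma, and 91 of the 111 differences were negative, with a median of -0.10. Of these, 36 had shARF arrays below all shSCR arrays, or 32.4%, where 16.6% of all genes did. Like the members, the 111 genes were brighter than all genes, with a median signal of 362 against 98.2. The 46 further small subunit genes had a median of -0.12, with 38 negative differences. The 53 further large subunit genes had a median of -0.10 with 44 negative and 9 positive differences, unlike the 6 and 6 of the 12 large subunit members, and this contrast was not tested. The gene that fell was Urb1, a nucleolar factor of early large subunit assembly, from 129, 118 and 110.4 on shSCR arrays to 88.1, 89.1 and 89.7 on shARF arrays. Its difference was -0.42 ± 0.072 (SE; limma, adjusted p = 0.0276), and with any single array removed the call was gone (adjusted p of 0.0536 to 0.0836 in limma). Of 18 genes of the RNA exosome and other nucleases of the precursor, 0 passed in limma, an unadjusted p under 0.05 was reached by 4 lower genes and 0 higher genes, SAM called 1, and the median was -0.05. The 4 lower genes are 22.2%, where 13.4% of all genes were lower at that p. SAM called 4.61% of all genes lower and 2.52% higher.

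Genes of the other polymerases and of the upstream inputs were measured beside them. For the counts below, the share of all genes called in limma was 2.38% lower and 1.62% higher. Of 19 genes of RNA polymerase III and its factors 1 fell, the TFIIIC subunit gene Gtf3c6, by 0.37 ± 0.059 (SE; limma, adjusted p = 0.0207), and the list median was -0.06. Of 8 genes of RNA polymerase II 1 fell, Polr2m, by 0.35 ± 0.064, and the median was -0.10. Among 19 MYC network and TOR pathway genes 3 fell and 0 rose, with a median of -0.03. These were Mlst8, a subunit of the TOR kinase complexes (-0.46 ± 0.072), Mlx, a partner in the extended MYC network (-0.40 ± 0.066), and Deptor, an inhibitor of TOR (-0.31 ± 0.060), with adjusted p of 0.0201, 0.0245 and 0.0405 in limma. Gtf3c6, Polr2m, Mlx and Deptor lost their calls with any single array removed, and Mlst8 kept its call without shARF replicate 2 only (limma, adjusted p = 0.0368). Myc had 1728, 1736 and 1605 on shSCR arrays and 1503, 1602 and 1586 on shARF arrays. The shARF arrays lay below the shSCR arrays, by a narrow margin between the nearest, and the difference was -0.11 ± 0.063 (limma, adjusted p = 0.365).

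Genes of nucleolar proteins that ARF is known to bind had differences of both signs. The 7 measured include Npm1, Ncl, Ttf1 and Ubtf described above, and 0 of the 7 passed in limma or SAM. In limma 2 higher genes and 0 lower genes reached an unadjusted p under 0.05. At that p 8.76% of all genes were higher and 13.4% lower. Of the 7 differences 5 were positive, where 46.8% of all tested genes had a positive difference. Nop53, a large subunit factor, differed by 0.16 ± 0.066, Ddx5, a helicase that takes part in ribosomal RNA processing, by 0.03 ± 0.063, and Senp3, which removes SUMO from nucleophosmin, by -0.04 ± 0.076. The median of the 7 was 0.03 on the log2 scale.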

How the data were processed

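Total RNA from 6 fibroblast samples was amplified to biotinylated cDNA and hybridised to Affymetrix gene-level arrays, per the labels' protocols. The authors deposited 1 intensity for each probeset on each array. These are RMA values (background correction, quantile normalization and probe summary) from Affymetrix Expression Console, per the submitters' processing notes. The sources used here give no version for it. The intensities lie on a linear scale and were turned to log2 here. Quantile normalization hides changes common to most genes, and background correction shrinks folds of dim genes.

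Probesets were named from the platform annotation, and 21056 of 26851 carried 1 symbol. A probeset was tested if above the 25th percentile of its array on at least 3 of 6 arrays, leaving 20310 probesets, which stood for 15145 named genes. The 3 shARF arrays were set against the 3 shSCR arrays in limma (version 3.58.1, R version 4.3.3; lmFit with eBayes, two-sided, Benjamini-Hochberg over all tested probesets). Simulated data of the same 20310 probesets, with 100 changed by 0.5 and 100 by 1 on the log2 scale, gave 54 and 92 calls in limma. Among the unchanged probesets 13 were called. Changes as small as those of the members (-0.32 to 0.19) were not simulated. The number of arrays limits the precision. The members and gene lists were chosen with earlier results of these data known. Per-array values are given for members that pass, up to 4 members per role with the smallest p, and Npm1, Ncl, Fbl, Ubtf, Ttf1, Rrn3, Polr1a and Polr1b in any case. Protein sequences were not used here.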

Additional observations from a re-analysis of the deposited data

How the results depend on the processing

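Of the 18 alternatives, 17 were planned and 1, another choice of probeset for Fbl and Wdr12, was chosen after seeing the data. In none of them was a member called higher. The number of members called lower, 1 with all arrays, was 3 with an offset of 16 or in SAM, 5 with each array's median as detection level, 7 with an intensity trend in limma, 2 with array weights or with the mean of a gene's probesets, and 0 without a filter, with the replicate block, on leaving out any 1 array, or without both arrays numbered 2. Calls among all genes, in either direction, rose as well, to 6.46% with the offset and 7.12% in SAM. They were 9.62% of 10358 genes with the median as detection level and 8.18% with the trend. With array weights they were 4.34%, and with the mean of a gene's probesets 5.24%. The calls added to Rrp12 were of Rrp9, Polr1e, Polr1a, Utp20, Nhp2 and Mybbp1a, so 7 members were called in at least 1 alternative. The median over members ranged from -0.12 to -0.05. The sign of the difference was kept in all alternatives by 34 members and turned in at least 1 for 10, none of which differed by more than 0.13.

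Over all genes, where 246 were called higher and 361 lower, the counts were 379 and 599 with the offset, 371 and 625 with the median as detection level, 493 and 746 with the trend, 381 and 698 in SAM, 164 and 208 without a filter, 153 and 183 with the replicate block, and 84 and 67 without both arrays numbered 2. On leaving out 1 array they were 64 to 156 and 85 to 177. In the other lists, the further ribosome biogenesis genes gave 2 calls with the offset, 3 with the median as detection level and 5 with the trend. The exosome genes gave 1, 1 and 2 in these settings and 1 in SAM, and the polymerase III genes 3 with the trend. Without a filter the polymerase II list gave 0 and the MYC and TOR list 2. With the replicate block, or without both arrays numbered 2, these lists gave 0 calls, and on leaving out 1 array 0 to 1. Same-numbered arrays deviated from their group means with correlations of 0.08, 0.05 and 0.00 across probesets, so the replicate numbers were not taken as pairs. Cdkn2a was called in every limma alternative and in SAM.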

Other observations

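For Fbl, Wdr12 and Polr1d more than 1 probeset carried the symbol, and the place of the brighter one differed. Probeset numbers run along the chromosomes: for 96.8% of 21037 named probesets the gene's chromosome is the most frequent one among its 10 nearest named neighbours by number. Among the 47 probesets of the members 44 follow this pattern. The brighter Fbl probeset (mean signal 2159) has 8 of 10 neighbours on chromosome 17, while Fbl lies on chromosome 7 in RefSeq. The brighter Wdr12 probeset (595) has 10 of 10 neighbours on chromosome 7, while Wdr12 lies on chromosome 1. With the dimmer probesets, at signals of 174 and 361, the differences became -0.22 ± 0.117 (SE) for Fbl and -0.06 ± 0.115 for Wdr12, and neither passed (limma, adjusted p = 0.344 and 0.793). For Polr1d the brighter probeset is the one among neighbours of its own chromosome 5. Which transcripts the brighter Fbl and Wdr12 probesets read was not tested.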
